A study of Homo sapiens with 38 samples.

Results

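The 9 genes described here encode proteins of the JAK-STAT pathway: the signal transducers and activators of transcription STAT3, STAT4, STAT5A, STAT5B and STAT6, and the feedback inhibitors SOCS1, SOCS2, SOCS3 and CISH. They are 9 of 20037 protein-coding genes, taken from a list of names that leaves out relatives such as STAT2 and SOCS4, and the rule for their regions uses no measured value. Each gene's window was its RefSeq GRCh38.p14 gene record plus 50 kb on each side, and every region of 3 peak lists that overlapped a window was taken. This gave 28 of 29009 GATA3 regions, 47 of 26205 BHLHE40 regions and 135 of 113570 H3K27ac regions. The windows of STAT5B, STAT5A and STAT3 overlap on chromosome 17, so the 9 genes form 7 separate loci, and a region in several windows was counted once in these totals.

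The series applied chromatin immunoprecipitation followed by sequencing (ChIP-seq) to Jurkat cells, an established line from a human T-cell acute lymphoblastic leukaemia (T-ALL), in 38 samples that form 19 groups of 2. The 3 groups used here are Ctrl_LV cells, otherwise wild-type Jurkat cells that carry a control lentivirus, with an antibody against GATA3, BHLHE40 or H3K27ac. All were labelled as stimulated with PMA and ionomycin, which together imitate T-cell receptor signalling through protein kinase C and calcium; the protocol gives 50 ng/ml PMA and 500 ng/ml ionomycin. The stimulation time is 5 hours in the sample labels and 2 hours in the protocol, and the sources do not say which holds. The other 16 groups were not taken up here, so no immunoprecipitated sample of edited or over-expressing cells enters any value. Whether an input sample entered the authors' peak calls is not given in the sources used here. Each list combines both samples of a group, so no value has a spread between samples, no test was possible, and every comparison below is a description of these lists. All cells come from 1 leukaemia line, which limits how far they stand for normal T cells. As a check of the cell type, H3K27ac regions lay at the start of 8 of 9 T-cell marker genes and of 2 of 3 T-cell leukaemia genes. The same held for 1 of 5 B-cell genes, 0 of 5 myeloid genes and 0 of 3 erythroid genes.

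In the JAK-STAT pathway, a cytokine bound to its receptor activates Janus kinases (JAKs), which phosphorylate STAT proteins, and STAT pairs then enter the nucleus and bind DNA. SOCS1, SOCS2, SOCS3 and CISH carry SH2 domains and a SOCS box, are induced by STATs, and damp the same receptors. In T cells STAT4 acts downstream of interleukin-12, STAT6 of interleukin-4, STAT3 of interleukin-6 and related cytokines, and STAT5A and STAT5B of interleukin-2 and interleukin-7. GATA3 is a zinc-finger factor of T-cell development and of type 2 helper cells, BHLHE40 is a basic helix-loop-helix factor of activated T cells that binds E-boxes, and acetylation of histone H3 at lysine 27 (H3K27ac) marks active promoters and enhancers.

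Upstream sequence was read from the RefSeq promoter table of GRCh38.p14, which holds 250 bases before and 50 bases after a listed gene start and matched 8 of the 9 genes with 12 promoters; SOCS2 was not matched. The 3 kinds of short word searched on both strands were the E-box CACGTG, the GATA word AGATAA together with its variants written TGATAA or else AGATAG and, finally, TGATAG, and the STAT word TTCNNNGAA, where N is any base. The STAT word was found at CISH only, 1 of 8 genes and 1 of the 12 promoters, against 7.66% of all 35116 promoters. CISH held it 4 times, and at least 4 matches were found in 0.0199% of promoters, that is in 7 promoters of 6 genes. Both stretches of 30 bases that hold the matches are shown because they lie inside regions of all 3 lists, with the STAT words in capitals and the minus strand of GRCh38.p14 written 5′ to 3′.
CISH chr3:50611991-50612020, minus strand: ccgttTTCCTGGAAagTTCTTGGAAatctg
CISH chr3:50611876-50611905, minus strand: ggTTCTAGGAAgacgctgcTTCCGGGAAgg

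The first base of the 4 words lay 241, 230, 129 and 112 bases before the listed CISH start. The H3K27ac summit, the base of highest signal in its region, lay 14 bp from the first word and 3 bp from the second. The GATA3 summit was 140 bp from its nearest word and the BHLHE40 summit 181 bp from its nearest. The upstream sequence of CISH also lies inside the record of MAPKAPK3, a protein kinase gene that runs the other way. A listed start of MAPKAPK3, at chr3:50611877, lies among these bases.

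GATA words were found at STAT6 only, 1 of 8 genes and 1 of the 12 promoters, against 25.0% of all promoters. STAT6 held 2 matches, and at least 2 were found in 6.08% of promoters. They are shown because the strongest GATA3 region of the STAT6 window lies over them, with the GATA words in capitals on the minus strand of GRCh38.p14.
STAT6 chr12:57110444-57110473, minus strand: tcgggcAGATAGgggttgAGATAAgcgagt

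The GATA3 summit lay 9 bp from AGATAG and 21 bp from AGATAA, which start 178 and 166 bases before the listed STAT6 start. The BHLHE40 summit lay 46 bp from AGATAG. The E-box CACGTG was found in 0 of the 12 promoters of 8 genes, against 7.26% of all promoters. BHLHE40 regions overlapped a searched promoter at STAT3, STAT4, STAT6, SOCS1 and CISH. A match or its lack describes these letters in this window and says nothing of what binds there.

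STAT3 and SOCS1 had the strongest H3K27ac signal at a gene start among the 9 genes and held none of the words. Their 250 bases before the start are shown in lower case, minus strand of GRCh38.p14, since these H3K27ac regions cover them whole or in part.
STAT3 chr17:42388443-42388692, minus strand: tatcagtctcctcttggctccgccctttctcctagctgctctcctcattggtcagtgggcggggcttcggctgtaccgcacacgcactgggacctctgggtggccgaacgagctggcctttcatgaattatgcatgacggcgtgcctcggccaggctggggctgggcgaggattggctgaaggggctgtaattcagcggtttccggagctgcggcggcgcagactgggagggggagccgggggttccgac
SOCS1 chr16:11256205-11256454, minus strand: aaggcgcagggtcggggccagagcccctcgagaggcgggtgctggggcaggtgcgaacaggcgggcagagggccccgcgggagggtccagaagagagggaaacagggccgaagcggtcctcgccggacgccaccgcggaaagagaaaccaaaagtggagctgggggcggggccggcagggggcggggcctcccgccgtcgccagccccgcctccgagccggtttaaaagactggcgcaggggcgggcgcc

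G and C made up 64.4% of the bases at STAT3 and 74.0% at SOCS1, within the range of 46.8% to 82.0% over the 12 promoters.

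The windows of the 9 genes differed widely in how many regions they held. GATA3 regions numbered 5 at STAT3, 9 at STAT4, 5 at STAT5A, 4 at STAT5B and 4 at STAT6. They numbered 0 at SOCS1, 2 at SOCS2, 6 at SOCS3 and 2 at CISH, against a median of 2 per window over all protein-coding genes. At least 1 GATA3 region was thus present in 8 of the 9 windows, against 76.1% of all windows. SOCS1 was the exception, and as a window with no region it stood at percentile 12.0 of all windows. SOCS3, at percentile 91.7, stood above STAT3 and STAT5A, both at 87.5, and STAT4 stood highest at 97.3.

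BHLHE40 regions numbered 11 at STAT3, 8 at STAT4, 9 at STAT5A, 13 at STAT5B and 6 at STAT6. They numbered 5 at SOCS1, 2 at SOCS2, 6 at SOCS3 and 4 at CISH, and the median over all genes was again 2. All 9 windows held at least 1, against 80.0% of all windows. By this count STAT5B stood at percentile 99.3 and SOCS2 at 44.7, and STAT6 and SOCS3 both stood at 87.0.

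H3K27ac regions numbered 31 at STAT3, 23 at STAT4, 21 at STAT5A, 26 at STAT5B and 23 at STAT6. They numbered 10 at SOCS1, 13 at SOCS2, 13 at SOCS3 and 9 at CISH, against a median of 8. All 9 windows held at least 1, against 92.6% of all windows. The 5 STAT windows lay between percentiles 93.5 and 98.3 and the 4 inhibitor windows between 53.1 and 73.9, so the groups did not overlap in this count. The windows also differ in width, from 116 to 222 kb for the STAT genes and from 102 to 156 kb for the inhibitors, with a median of 124 kb over all genes. Per 100 kb of window, GATA3 had a median percentile of 82.8 over the 9 genes, BHLHE40 one of 90.7 and H3K27ac one of 90.1. As plain counts these medians were 81.0, 87.0 and 93.5. With the width taken into account, the STAT genes and the inhibitors overlapped in H3K27ac too: STAT4 had 10.4 regions per 100 kb and SOCS3 had 12.5. SOCS3 also had the most GATA3 regions per 100 kb of the 9 genes, 5.76.

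**Figure D1:**
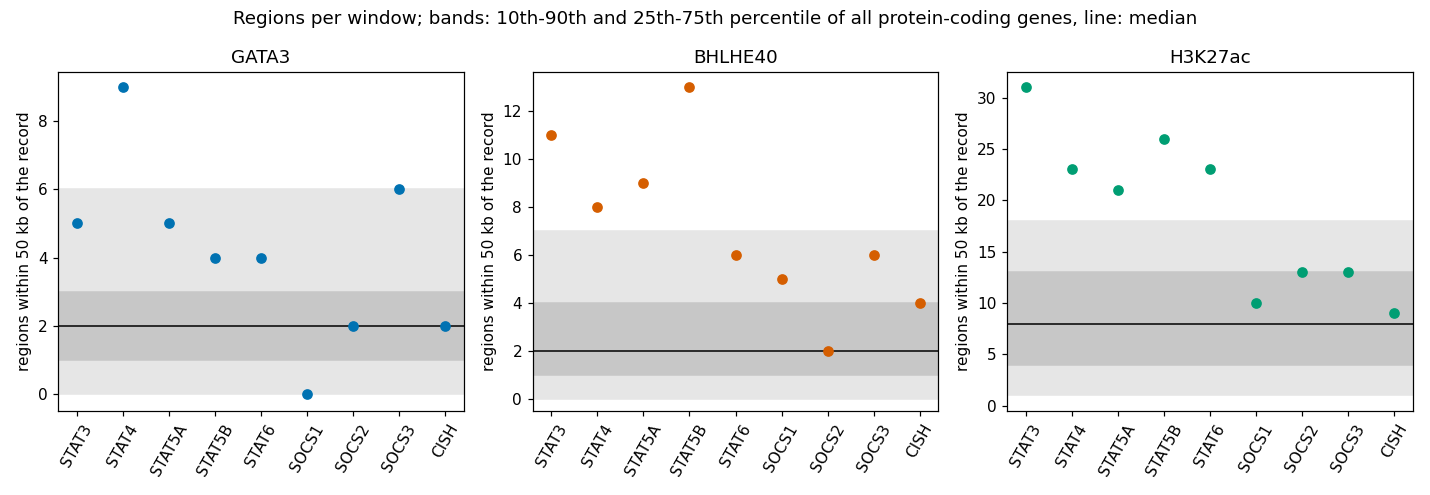
Number of regions of each list within 50 kb of the gene record (vertical axis), 1 point per gene, over bands for the 10th to 90th and 25th to 75th percentile of 20037 protein-coding gene windows and a line at their median. The 5 STAT points lie above the 90th percentile of 18 regions for H3K27ac, and SOCS1 lies at 0 for GATA3.

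A region was counted at a start when it reached within 1 kb of the start of the gene record, or of either end for SOCS2, whose strand is not given. H3K27ac regions lay at the start of 9 of 9 genes, against 53.0% of all protein-coding genes. With a −log10 q of at least 5 they lay at the start of 6, against 46.5%; STAT5A and STAT5B share 1 weaker region and SOCS3 had another. BHLHE40 regions lay at the start of 7 of 9, all but STAT5A and STAT5B, against 45.1%. GATA3 regions lay at the start of 3 of 9, namely STAT6, SOCS2 and CISH, against 20.9%. The GATA3 region of SOCS2 is at the higher-coordinate end of its record, which may not be the start. The background for genes without a strand also counts both ends. Among the 15843 genes with a strand, 22.1% had GATA3, 47.1% BHLHE40 and 54.8% H3K27ac at the start.

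**Figure D2:**
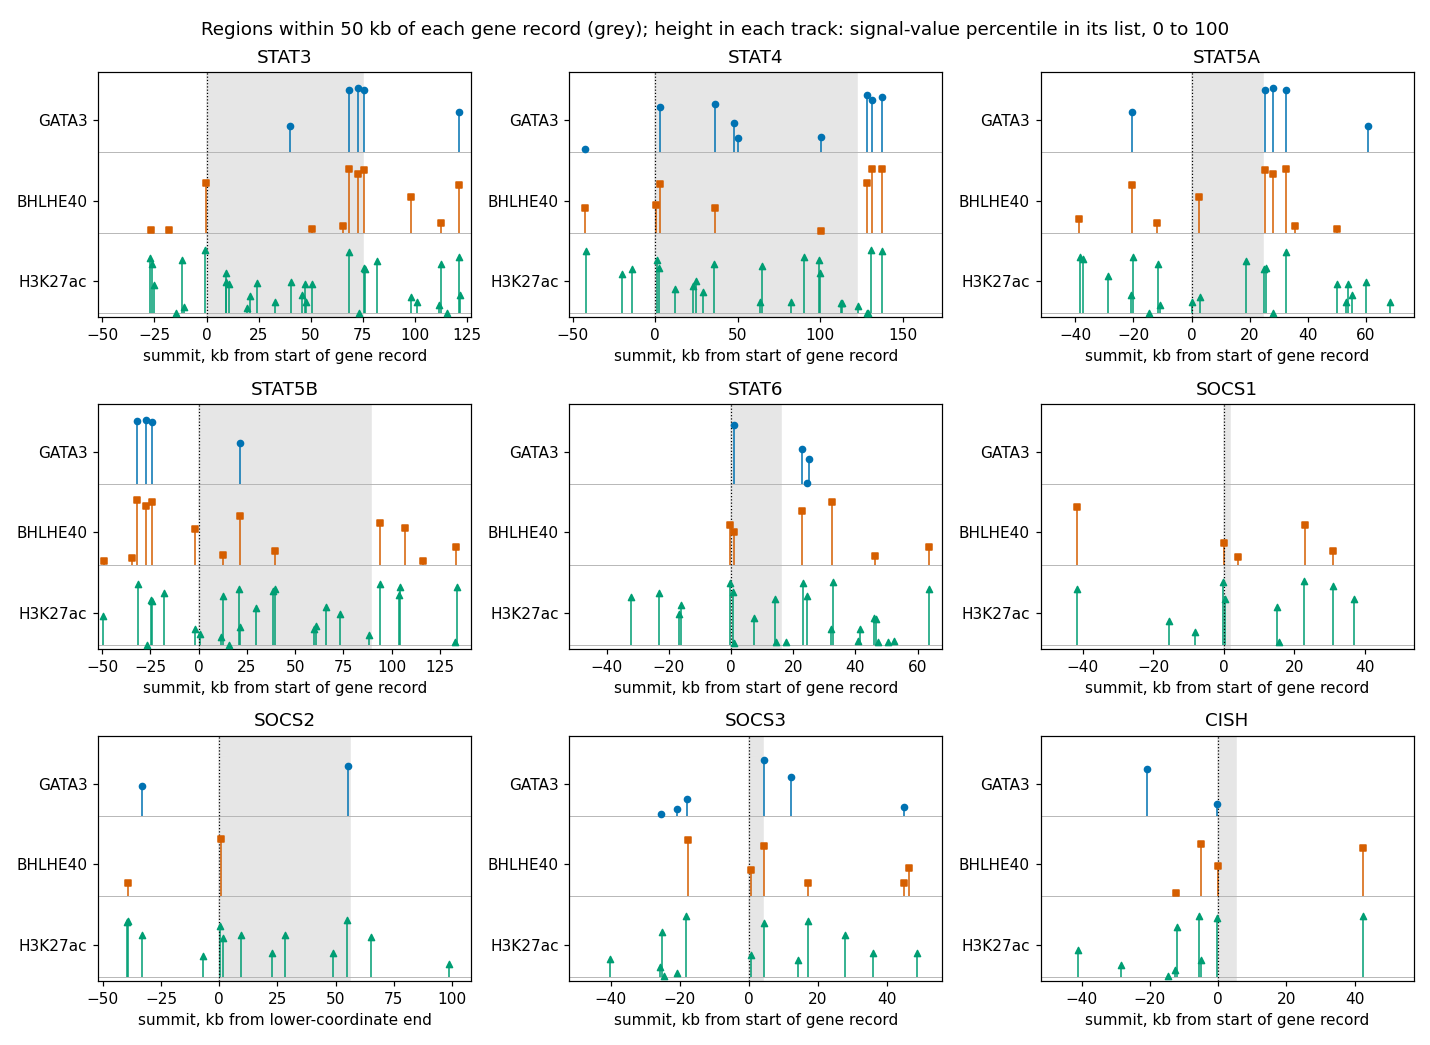
Summits of all regions around each of the 9 genes, in kb from the start of the gene record along the gene (from the lower-coordinate end for SOCS2), with the record in grey. Height in each track is the percentile of the signal value within its own list. In the STAT3, STAT5A and STAT5B panels the same 3 neighbouring GATA3 and BHLHE40 summits stand near the top of their tracks.

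The 3 STAT genes of chromosome 17 shared the strongest places of both factors. STAT5B (chr17:42199177-42288370, minus strand), STAT5A (chr17:42287439-42311943, plus strand) and STAT3 (chr17:42313324-42388442, minus strand) lie next to each other. STAT3 and STAT5A thus meet at their 3′ ends. There, from the gap between both genes into the 3′ part of STAT3, regions of all 3 lists overlapped at 3 places. Strength is given as the signal value, the authors' enrichment measure per region, which has a median of 11.2 in the GATA3 list, 9.35 in the BHLHE40 list and 3.31 in the H3K27ac list.

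The first place lies between both records, with a GATA3 region at chr17:42312107-42313296 of signal 62.0, rank 937 of 29009. The BHLHE40 region over it had a signal of 42.5, rank 568 of 26205, and the summits were 26 bp apart. The stronger of 2 H3K27ac regions there had a signal of 3.67 and a −log10 q of 31.4. The factor values stood at percentiles 96.8 and 97.8 of their lists, and the H3K27ac signal at 70.2.

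The second place, in STAT3 at chr17:42315163-42315951, held the strongest GATA3 region of the 9 windows, with a signal of 103 and rank 231. BHLHE40 reached 23.9 there, rank 2169, with its summit 10 bp away. H3K27ac had a signal of 1.85, against the list's median of 3.31. By signal it was among the weakest of its list, at rank 113259 of 113570 and percentile 0.274. Its −log10 q of 6.63 was above the list's median of 3.00.

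The third place, in STAT3 at chr17:42319475-42320607, held the strongest BHLHE40 region of the 9 windows, with a signal of 80.0 and rank 92 of 26205. GATA3 reached 69.1, rank 712, and the summits were 1 bp apart. H3K27ac reached 7.15 with a −log10 q of 212. Successive GATA3 summits of these places were 2.84 and 4.52 kb apart, and the last is 68324 bp from the STAT3 start by the BHLHE40 summit. Another place with all 3 lists lay 45.7 kb from the first, inside STAT5B at chr17:42266741-42267298, with a signal of 14.1 for both factors, summits 4 bp apart and H3K27ac at 4.78.

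At the starts of these genes the pattern was another one. STAT3 had a BHLHE40 region of signal 14.9 and an H3K27ac region of signal 12.0, rank 1310 of 113570, the strongest H3K27ac region of the 9 windows, and no GATA3 region. STAT5A had H3K27ac only, with a signal of 2.77 and a −log10 q of 2.16. STAT5B's record starts beside it and shares that H3K27ac region; at the start that the promoter table lists for STAT5B, inside the record, BHLHE40 had a signal of 5.79 and H3K27ac one of 3.86. The fifth GATA3 region of the locus, inside STAT3 with signal 9.89, overlapped no BHLHE40 region. In the whole locus 16 BHLHE40 regions were listed, of which 4 overlapped GATA3, against 53.0% of the whole list. A further 8 overlapped H3K27ac without GATA3 and 4 overlapped no other list. For these latter counts no share over the whole list is given.

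**Figure D3:**
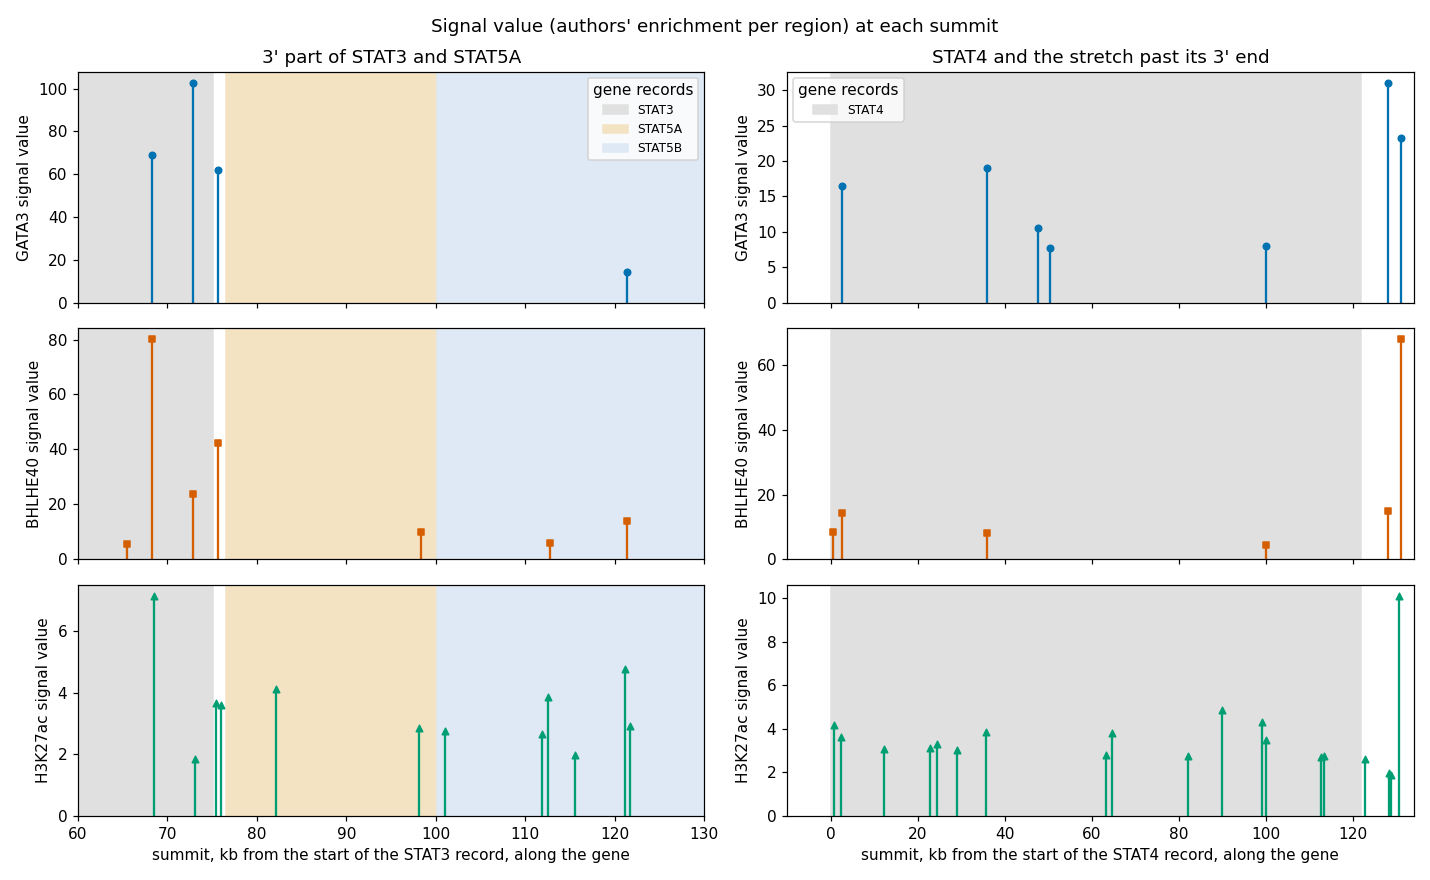
Signal value (vertical axes, 1 per list) at each summit against its distance in kb from the start of the STAT3 record (left) or the STAT4 record (right), with gene records shaded. The 3 tall GATA3 and BHLHE40 summits at the 3′ end of STAT3 and the pair beyond the 3′ end of STAT4 stand at the same positions in both factor tracks.

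STAT4 (chr2:191029576-191151596, minus strand) had the largest number of shared places. Its 9 GATA3 regions included 7 that overlapped both other lists. At least 3 such places were found in 5 of the 9 windows, those of the STAT genes, against 13.3% of all protein-coding gene windows, and STAT3, STAT5A and STAT5B share theirs. Of the 6 described here, the strongest pair lay beyond its 3′ end, with GATA3 summits 3.17 kb apart.

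The one farther from STAT4, at chr2:191019913-191021515, had a GATA3 signal of 23.3, a BHLHE40 signal of 68.0, rank 150 of 26205, and an H3K27ac signal of 10.1 with a −log10 q of 362. Its summits were 1 bp apart, and its GATA3 summit lies in no gene record. The nearer one, at chr2:191022358-191023953, had the strongest GATA3 region of the window, with a signal of 31.0, and lies in the noncoding genes STAT4-AS1, LOC124900514 and LOC107985785. BHLHE40 was 15.0 there. H3K27ac had a signal of 1.97, at percentile 0.563 of its list, and a −log10 q of 8.24.

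Inside the STAT4 record the shared places were weaker. GATA3 signals at those 3 places were 7.96, 19.0 and 16.5, and BHLHE40 signals 4.35, 8.04 and 14.3. The last of them lies 2074 bp from a listed STAT4 start by its GATA3 summit. A further place, in the noncoding gene LOC105373804 upstream of STAT4, had a GATA3 signal of 5.68, a BHLHE40 signal of 8.07 and an H3K27ac signal of 8.35. At the STAT4 start itself BHLHE40 had a signal of 8.49 and H3K27ac one of 4.19, and no GATA3 region was listed. The 2 GATA3 regions that overlapped no BHLHE40 region, with signals of 7.71 and 10.5, lay inside STAT4.

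STAT6 (chr12:57095408-57111362, minus strand) was the only STAT gene of the 5 with GATA3 at its start. That region, chr12:57110188-57110793, lies over both GATA words shown above and had a signal of 37.3, rank 2517 of 29009. BHLHE40 had a signal of 9.51 there, its summit 37 bp away. The stronger of 2 H3K27ac regions there had a signal of 4.19, with its summit 295 bp from the GATA3 summit. The weaker one, which covers the GATA words and the GATA3 summit, had a signal of 2.32 and a −log10 q of 2.36. A second BHLHE40 region, of signal 11.2, and an H3K27ac region of signal 8.07 lay at the start of the record, upstream of the listed start. The other 3 GATA3 regions of the window, with signals of 4.91 to 12.1, had their summits in the record of NEMP1, a gene of the nuclear envelope. All 3 overlapped a single wide BHLHE40 region, chr12:57086204-57088921, of signal 17.4. The summit of this BHLHE40 region lies 20 bp outside the NEMP1 record and 467 bp from a listed start of NAB2. The strongest BHLHE40 region of the window, of signal 43.2 and rank 543, lay in NEMP1, with H3K27ac at 9.56 and no GATA3 region.

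Around the inhibitor genes the highest signals were 28.4 for GATA3 and 21.5 for BHLHE40, against 103 and 80.0 around the STAT genes. SOCS1 (chr16:11254417-11256204, minus strand), a strong inhibitor of JAK kinases, had no GATA3 region within 50 kb. Its start had a BHLHE40 region of signal 7.52 and an H3K27ac region of signal 11.3, rank 1688 of 113570. The strongest H3K27ac region, chr16:11232666-11233838, had a signal of 11.9 and overlapped a BHLHE40 region of 11.2. It lies 20984 bp from the record. The strongest BHLHE40 region, of signal 21.5, was 41575 bp away on the other side, in the noncoding gene LOC105371082, with H3K27ac at 4.76. By the signal of its strongest H3K27ac region SOCS1 was thus highest among the inhibitors, while its window had no GATA3 region. By number of H3K27ac regions it was not, with 10 against 13 at SOCS2 and 13 at SOCS3.

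SOCS2 (chr12:93569969-93626236), an inhibitor of growth hormone and related signals, had the factors at opposite ends of its record. BHLHE40 had a signal of 21.2 at the lower-coordinate end, inside the antisense gene SOCS2-AS1 as well, where H3K27ac reached 4.03 and no GATA3 region was listed. GATA3 had a signal of 20.3 near the other end, at chr12:93624769-93625336, with H3K27ac at 5.04 and no BHLHE40 region. The remaining GATA3 region had a signal of 10.7 and the remaining BHLHE40 region one of 6.39. None of the 4 factor regions overlapped a region of the other factor.

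SOCS3 (chr17:78356778-78360925, minus strand), an inhibitor of interleukin-6 receptor signals, had its strongest GATA3 region just past its 3′ end. That region, chr17:78356127-78356731, had a signal of 28.4, with the summit 254 bp outside the record. BHLHE40 had a signal of 15.4 there with the summit 13 bp away, and H3K27ac one of 4.32. The SOCS3 start had BHLHE40 at 8.41 and H3K27ac at 3.05 and no GATA3 region. Of the other 5 GATA3 regions, with signals of 5.28 to 13.5, 1 lay at the start of PGS1, an enzyme of mitochondrial lipid synthesis, together with BHLHE40 at 19.5 and H3K27ac at 7.71.

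CISH (chr3:50606489-50611774, minus strand), a textbook target gene of STAT5, was like STAT6 in having regions of all 3 lists at its start. A listed start of MAPKAPK3 lies there too, so these regions are not particular to CISH. The GATA3 summit was 278 bp from that start and 381 bp from the CISH start. The GATA3 region chr3:50611442-50612380 had a signal of 7.36, rank 23697 of 29009, so it was among the weaker of its list. BHLHE40 had a signal of 9.03 and H3K27ac one of 5.87 with a −log10 q of 18.5. The summits of both factors were 458 bp apart. The strongest GATA3 region of the window, of signal 17.7, lay inside MAPKAPK3 and overlapped no other list. The strongest BHLHE40 region, of signal 16.4, and an H3K27ac region of 7.54 were also inside MAPKAPK3.

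By the strongest region in each window, the windows of the STAT genes stood above those of the inhibitors for BHLHE40. STAT3, STAT5A and STAT5B, which share that region, stood at percentile 99.3 of all protein-coding windows, STAT4 at 98.8 and STAT6 at 95.4. No allowance was made here for window width, which differed between the genes as given above. SOCS1, SOCS2, SOCS3 and CISH stood at 77.1, 76.3, 72.4 and 62.8. The STAT6 value belongs to a region 16618 bp outside the STAT6 record, with its summit 1 bp from a listed start of NEMP1. Those of SOCS3 and CISH likewise belong to regions at listed starts of PGS1 and MAPKAPK3. At the STAT6 start itself BHLHE40 reached 11.2, less than the strongest region of each inhibitor window. For GATA3 the chromosome 17 genes stood at 98.2, STAT6 at 84.1 and STAT4 at 79.4. SOCS3 at 77.2, SOCS2 at 66.6 and CISH at 61.6 came below them. For H3K27ac the order was another one, with STAT3 at 81.8 and SOCS1 at 81.1, STAT4 at 70.3, STAT6 at 66.4 and the other genes between 28.4 and 50.4. Over all regions of the 7 loci the strength was near the middle of each list: within its list the median GATA3 region stood at percentile 57.5, the median BHLHE40 region at 47.4 and the median H3K27ac region at 48.8.

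**Figure D4:**
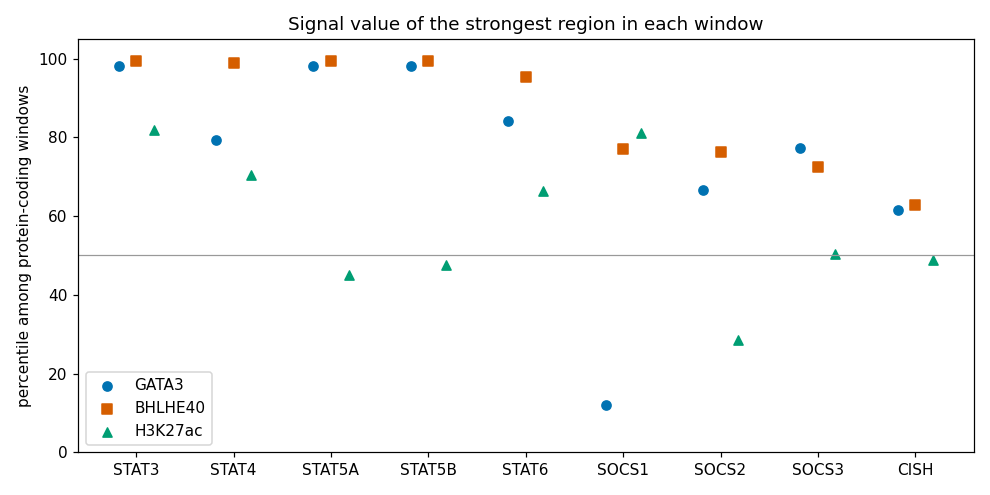
Percentile of the strongest region of each window among 20037 protein-coding gene windows (vertical axis), 1 point per gene and list, with a line at 50. BHLHE40 points of the STAT genes lie at 95.4 or above, and the GATA3 point of SOCS1 marks a window without a region. The BHLHE40 point of STAT6 stands for a region at a listed start of NEMP1.

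How the lists overlapped around the 9 genes depended on the direction in which they were read. Of the 28 GATA3 regions, 19 (67.9%, 95% Wilson interval 49.3 to 82.1%) overlapped a BHLHE40 region, against 48.7% of the whole list. Of the 47 BHLHE40 regions, 17 (36.2%, 24.0 to 50.5%) overlapped a GATA3 region, against 53.0%. The GATA3 share lay above that of its list and the BHLHE40 share below. The intervals cover counting error only and treat neighbouring regions as independent.

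Acetylation lay over most factor regions. H3K27ac overlapped 21 of 28 GATA3 regions (75%, 56.6 to 87.3%), against 49.1% of the list, and 40 of 47 BHLHE40 regions (85.1%, 72.3 to 92.6%), against 76.4%. Both other lists were present at 17 of 28 GATA3 regions, against 37.7%. Conversely, 58 of 135 H3K27ac regions (43.0%, 34.9 to 51.4%) held either factor, against 26.4%. Where the −log10 q of an H3K27ac region was at least 5, 45 of 54 held a factor (83.3%), against 70.0%. The 9 such regions without a factor were all in STAT windows: 6 of 17 in the chromosome 17 locus, 2 of 10 at STAT4 and 1 of 8 at STAT6. The inhibitor loci had 5 such regions at SOCS1, 4 at SOCS2, 5 at SOCS3 and 5 at CISH, each with a factor.

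Of the 28 GATA3 regions, 5 overlapped neither other list, and of the 47 BHLHE40 regions 6 overlapped neither. A further 24 BHLHE40 regions overlapped H3K27ac only. No share over the whole lists is given for these counts, so they are not set against a background. Where GATA3 and BHLHE40 overlapped, the summits were close. The median distance over 19 pairs was 26 bp and 12 pairs (63.2%) lay within 50 bp. Over all 14123 pairs of the lists the median was 35 bp and 61.5% lay within 50 bp, so the 9 genes were near the background. The widest pair, 2313 bp apart, is in the wide BHLHE40 region at NEMP1 and NAB2.

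**Figure D5:**
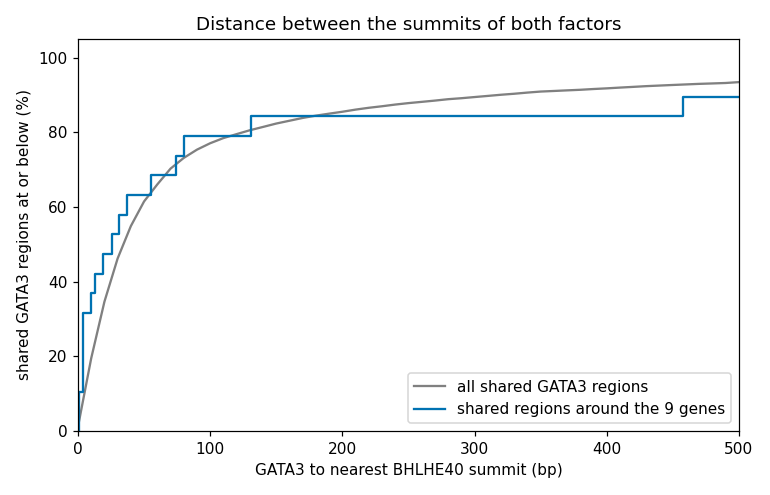
Share of GATA3 regions shared with BHLHE40 (vertical axis, %) whose summits lie at or below a given distance in bp (horizontal axis, up to 500 bp), for the 19 regions around the 9 genes and for all 14123. The curves run close together, with medians of 26 and 35 bp.

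The rest of the pathway was described with a list of 25 genes: STAT2, kinases, inhibitors, phosphatases and receptors. H3K27ac lay at the start of 21 of the 25, against 53.0% of all genes, and was missing at PIAS2, PTPN6, IL2RB and IL7R. BHLHE40 lay at the start of 20, against 45.1%, and was missing at SOCS6, PIAS2, IL2RB, IL4R and IL7R. GATA3 lay at the start of 7, against 20.9%: SOCS4, PIAS1, PTPN1, PTPN2, PTPN11, IL6ST and IFNAR1. All 4 Janus kinases, JAK1, JAK2, JAK3 and TYK2, had BHLHE40 and H3K27ac but no GATA3 at the start. The strongest H3K27ac start was that of PTPN2, a phosphatase that removes phosphate from JAKs and STATs, with a signal of 24.8, above the 12.0 of STAT3. IL2RA, the alpha chain of the interleukin-2 receptor and a STAT5 target, had 14 GATA3 regions in its window, more than the 9 of STAT4, and none at its start.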

How the data were processed

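ChIP-seq peak lists of 3 groups of 2 stimulated Jurkat samples (Ctrl_LV with GATA3, BHLHE40 or H3K27ac antibody) were used; samples were grouped by their titles. Per the submitters' processing notes, bcl2fastq 2.20, MACS2 and hg38 were used; the aligner, filters and use of input are not given in the sources used here. Per the labels, the factor lists passed an irreproducible discovery rate of 0.05 and the H3K27ac list is pooled, so each list stands for both samples. The deposited score of the factors runs from 540 to 1000, and that of H3K27ac is 10 times the −log10 p. The signal value is the authors' enrichment measure per region, with no stated reference. The authors also deposited −log10 p and −log10 q, and the summit offset that gives each summit. The depth of the samples is unknown. A strict list for 2 samples drops weak regions, whereas the pooled list keeps many, so counts are not compared between lists.

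Regions were joined to RefSeq GRCh38.p14 gene records (59679, of which 20037 protein-coding) by an overlap of at least 1 bp. Percentiles are mid-ranks among protein-coding windows or within a list. Gene starts came from the record and its strand. Words were searched in 35116 promoters of 300 bases. Coordinates are 1-based. Scripts ran in Python 3.11.15 (pandas 2.3.3, numpy 2.4.6, scipy 1.17.1; figures with matplotlib 3.10.9), and the overlap, percentile and word functions were tested on simulated data. Named regions were the strongest of each list per window, factor regions at a gene start and places with all 3 lists. Some other factor regions were named after their values were seen. The members and all lists were chosen with earlier results of these data known. Alternatives were window width, start width, stricter scores, other definitions of overlap and other backgrounds; starts from the promoter table were added after seeing the data. Some results are not reported here, although their regions count in the totals of their window.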

Additional observations from a re-analysis of the deposited data

How the results depend on the processing

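Of 110 alternative values over 24 results and 16 settings, 97 stayed within 1.5 times the reported count, or within the 95% interval of the reported share, median or percentile, and 13 moved beyond it. The intervals are wide: for the median window percentile, 54.9 to 91.7 for GATA3 and 58.6 to 96.9 for H3K27ac. They treat the 9 genes as independent, although some windows overlap. A value that stayed may thus still differ much from the one reported. Windows of 10 kb each side held 27 BHLHE40 and 79 H3K27ac regions. Regions nearest to a member rather than to another protein-coding gene numbered 17 for GATA3, 28 for BHLHE40 and 82 for H3K27ac. With factor scores of at least 830, 94.1% of BHLHE40 regions overlapped H3K27ac and 34.1% of H3K27ac regions held either factor. With a −log10 q of at least 5, 54 H3K27ac regions were left and 83.3% held either factor. Against all gene records, the median H3K27ac window percentile was 97.3. Within 500 bp of the start GATA3 lay at 1 gene, CISH, and H3K27ac at 7. Requiring the summit inside the other region gave 50.0% for GATA3 and 61.7% for BHLHE40 on H3K27ac. With starts from the promoter table, BHLHE40 lay at the start of 8 genes, STAT5B included, GATA3 at 3 and H3K27ac at 9. For the score, 500 bp, summit and promoter-table settings, no share over whole lists or all genes is given. These values are thus not set against a background. These settings differ in the regions taken, the distances or the background, and why each value moved was not tested. No paired analysis was possible because the lists hold no value of a single sample, and for the same reason no replicate could be left out. With sample depth unknown, a window without a listed region is not shown to lack binding.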

Other observations

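BHLHE40 summits around the 9 genes also lay at starts of neighbouring genes. Of 47, 9 lay within 1 kb of a start of one of the 9 genes, 10 within 1 kb of a start of another gene, and 28 at no start. The 19 at any start are 40.4%, against 35.9% of the whole list. Median signals of the 3 kinds were 9.03, 15.3 and 7.49, against 10.1 for all BHLHE40 regions at a start and 8.95 for those at none. The BHLHE40 summit of signal 43.2 in the STAT6 window was 1 bp from a listed start of NEMP1. That of signal 19.5 in the SOCS3 window was 18 bp from the start of PGS1. That of signal 16.4 in the CISH window was 260 bp from a listed start of MAPKAPK3, and that of signal 14.2 there was 148 bp from HEMK1. In the STAT5B window, summits of signal 11.5, 10.3 and 6.95 lay 52 bp from GHDC, 297 bp from KCNH4 and 157 bp from RAB5C.

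Of the 28 GATA3 summits around the 9 genes, 2 lay within 1 kb of a start of one of these genes, 4 within 1 kb of a start of another gene and 22 at no start. The 22 are 78.6%, against 85.2% of the whole list. All 6 at a start were in regions shared with BHLHE40, against 86.6% of the list's regions at a start. So were 13 of the 22 at no start, against 42.1% of the list's. These places were chosen after their values were seen, and no difference from the lists was tested.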
